A study of Mus musculus with 20 samples.

Results

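Arylacetamide deacetylases are serine esterases of the hormone-sensitive lipase family, and 3 of their genes, Aadac, Aadacl2 and Aadacl3, were described in the skin of imiquimod-treated and mock-treated mice. They were chosen by gene symbol, as rows of the deposited table whose array platform entry names 1 of these symbols, and they are 3 of the 22180 genes with a single symbol. Each was measured by 1 such probe set (17397923 for Aadac, 17397915 for Aadacl2, 17432565 for Aadacl3; Entrez gene identifiers 67758, 639634 and 230883). The choice was made with their values in these 4 groups known, so their levels and differences below are a description and carry no test. Expression was measured on Affymetrix arrays in abdominal skin of 20 mice, 5 in each of 4 groups. The knockout animals were zfp36 fl/fl K14 cre and received imiquimod or the mock treatment for 5 days, and the control littermates were zfp36 fl/fl without the Cre and received the same 2 treatments. Every animal, controls included, thus carried the floxed allele, and skin was taken 4 h after the last application. Cre under the keratin 14 promoter acts in keratinocytes. Which skin cells lost or kept Zfp36, those of sebaceous glands and hair follicles included, was not measured here. The sources used here do not give age, sex, strain or the content of the mock application. The product of Zfp36, tristetraprolin, speeds the decay of mRNAs that carry AU-rich elements, and imiquimod is a Toll-like receptor agonist that causes a psoriasis-like inflammation of mouse skin.

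Aadac is an enzyme of the endoplasmic reticulum that hydrolyses ester and amide bonds, with its catalytic site on the luminal side. It is best known from liver and intestine, where it takes part in the hydrolysis of drugs and of stored triacylglycerol. Aadacl2 and Aadacl3 are named for their sequence similarity to Aadac, and their substrates are less well known. The family is spread over tandem gene clusters in the mouse. In the RefSeq annotation of assembly GRCm38.p6, Aadacl2 and Aadac end a run of 6 family genes on chromosome 3, in the order Gm5709, Aadacl2fm2, Aadacl2fm3, Aadacl2fm1, Aadacl2, Aadac, with 1 other measured gene, the transcribed pseudogene Gm9696, among them. Aadacl3 opens a run of 7 family genes on chromosome 4, in the order Aadacl3, Aadacl4fm1, Aadacl4fm2, Aadacl4, Aadacl4fm4, AAdacl4fm3, Aadacl4fm5, with 0 other measured genes among them. Tandem copies can be close in sequence, and whether a probe set also takes up signal of a neighbouring copy was not tested, since probe sequences were not used here.

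The promoters of the 3 genes are shown because their mRNAs were higher together under imiquimod, and that of Aadacl2fm1 because it is the closest promoter to that of Aadacl2 while its own values did not follow. Each is the 250 bases before the annotated start, from RefSeq GRCm38.p6: Aadacl2 at chr3:60006493-60006742 on the plus strand, Aadacl2fm1 at chr3:59924964-59925213 on the plus strand, Aadac at chr3:60031538-60031787 on the plus strand and Aadacl3 at chr4:144463757-144464006 on the minus strand. Capitals mark the motifs found among 6 searched on both strands.
Aadacl2: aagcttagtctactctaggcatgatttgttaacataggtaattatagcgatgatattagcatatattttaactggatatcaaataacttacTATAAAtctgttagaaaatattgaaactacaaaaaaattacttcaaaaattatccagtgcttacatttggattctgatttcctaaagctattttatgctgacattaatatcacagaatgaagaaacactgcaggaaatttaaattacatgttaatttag
Aadacl2fm1: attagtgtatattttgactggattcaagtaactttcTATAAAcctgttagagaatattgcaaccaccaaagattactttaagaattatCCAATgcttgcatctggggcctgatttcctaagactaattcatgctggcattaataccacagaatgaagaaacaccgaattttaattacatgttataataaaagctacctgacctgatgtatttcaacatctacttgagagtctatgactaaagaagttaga
Aadac: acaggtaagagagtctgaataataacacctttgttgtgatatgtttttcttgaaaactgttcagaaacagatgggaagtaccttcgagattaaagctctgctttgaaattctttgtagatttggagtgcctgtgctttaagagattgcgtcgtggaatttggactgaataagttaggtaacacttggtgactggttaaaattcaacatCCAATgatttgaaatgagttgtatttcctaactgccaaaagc
Aadacl3: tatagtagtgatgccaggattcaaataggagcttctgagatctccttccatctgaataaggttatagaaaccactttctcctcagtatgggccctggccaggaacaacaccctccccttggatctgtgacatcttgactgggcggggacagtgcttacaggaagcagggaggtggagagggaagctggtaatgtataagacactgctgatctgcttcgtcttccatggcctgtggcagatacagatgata
The motifs were TATAAA, held by 13% of 27025 promoters of the same length, CCAAT (34.5%), the AP-1 site TGANTCA (6.87%), the grainyhead-like core AACCGGTT (0.122%), the NF-kB site (0.337%) and the PPAR direct repeat (0.037%). Counting back from the annotated start, Aadacl2 held TATAAA at position -159, and Aadacl2fm1 held TATAAA at -214 and CCAAT at -162. Aadac held CCAAT at -42, and Aadacl3 held none of the 6. Among 66 pairs of the 12 family promoters on both clusters, Aadacl2 and Aadacl2fm1 gave the highest local alignment score, with 156 identical bases in 190 aligned columns (82.1%). Gm5709 and Aadacl2fm3 were next, with 139 of 210 (66.2%). These are matches of letters and say nothing of which factor binds.

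The deposited values were taken as log2, which is inferred from their range of 1.41 to 13.33, and they were comparable in centre between arrays (array medians 4.94 to 5.04). Over the 20 arrays the epidermal keratins Krt14 (10.54 to 12.31) and Krt10 (11.43 to 12.55) and the dermal collagen Col1a1 (9.5 to 11.99) lay well above the median gene (5.44). Zfp36 averaged 6.4 ± 0.85 in knockout and 8.0 ± 0.26 in control skin under imiquimod, and 5.43 ± 1.54 in knockout and 7.46 ± 0.22 in control skin under mock treatment (SD, n = 5 each). It was lower in every knockout array than in any control array of the same treatment (exact two-sided permutation p = 0.00794 in each treatment, the smallest that 5 against 5 allows). The adjusted p of the limma fit over all genes was 0.221 under imiquimod and 0.999 under mock treatment. The amount of hair RNA set some arrays apart from their groups. The mean of 27 hair shaft and follicle genes was 8.99 in knockout imiquimod replicate 1 (others 5.56 to 7.36), 9.15 in control imiquimod replicate 5 (others 5.34 to 5.9), 5.9 in knockout mock replicate 3 (others 7.75 to 10.06) and 5.91 in control mock replicate 5 (others 9.1 to 10.11).

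All 3 genes were higher under imiquimod than under mock treatment in both genotypes, and in each genotype none of their imiquimod arrays overlapped a mock array. Beside these 3 of 3, the share of all genes whose arrays did not overlap with imiquimod higher was 7.16% in knockout and 5.6% in control skin, and with imiquimod lower it was 6.53% and 2.74%. The genotype set Aadacl3 apart from the other two in mock-treated skin, where its level was higher in every knockout array than in any control array. Under imiquimod the knockout and control arrays of all 3 genes overlapped. In whole skin, a change in RNA per cell and a change in the number of cells that express a gene cannot be told apart.

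**Figure D1:**
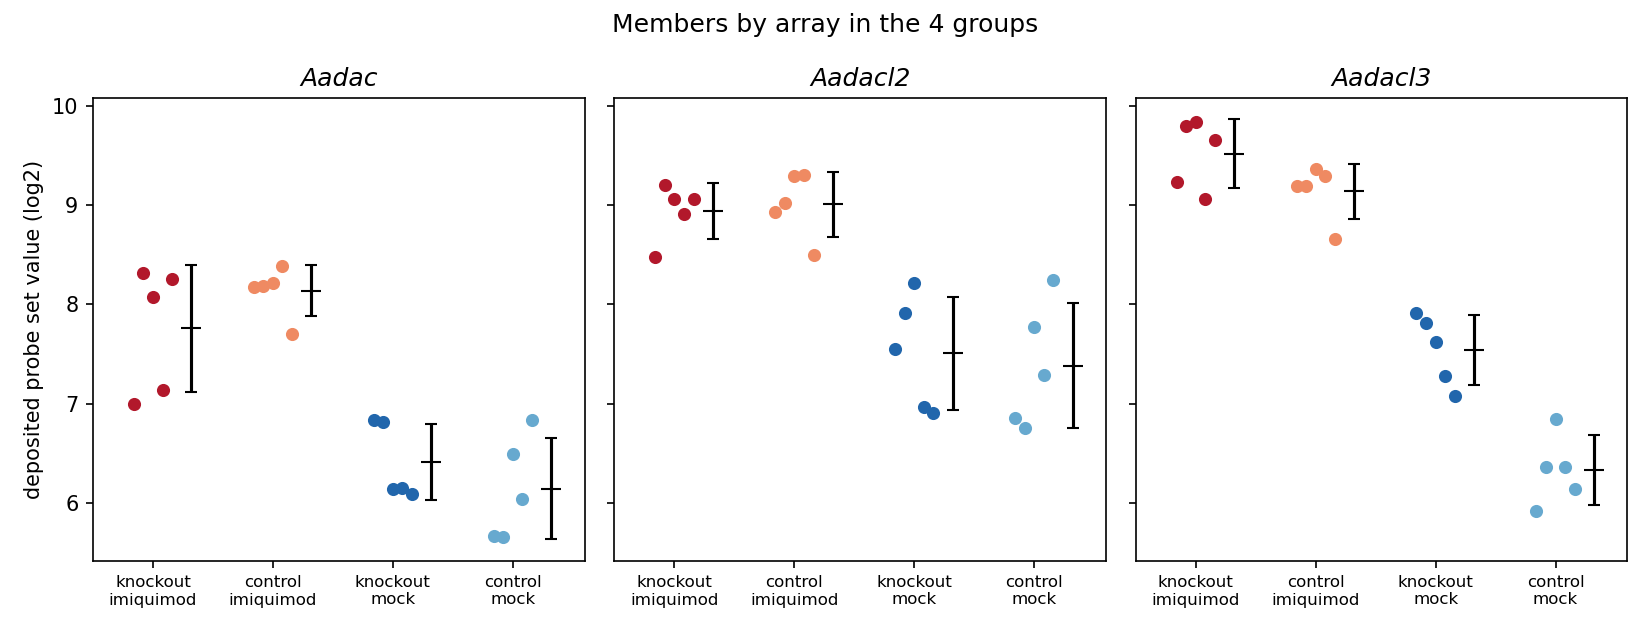
Deposited log2 values of Aadac, Aadacl2 and Aadacl3 in each of the 20 arrays (points) by group, with the group mean and SD (n = 5 each). Every imiquimod array lies above every mock array of its genotype, and for Aadacl3 the mock-treated knockout arrays (7.08 to 7.91) lie above the mock-treated control arrays (5.92 to 6.85).

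Aadac, the family's founding member, had values of 7.0, 8.32, 8.08, 7.14 and 8.26 in imiquimod-treated knockout skin, against 6.84, 6.81, 6.14, 6.15 and 6.09 in mock-treated knockout skin. The lowest imiquimod array of the knockouts, 7.0, was only slightly above the highest mock array. In control skin Aadac had 8.18, 8.19, 8.22, 8.39 and 7.70 under imiquimod, against 5.67, 5.66, 6.49, 6.04 and 6.83 under mock treatment. The controls were well separated by treatment, and their mock arrays were the more scattered. The difference, imiquimod minus mock, was 1.35 ± 0.27 (SE) on the log2 scale in knockout skin, a fold of 2.56, and 2.0 ± 0.27 in control skin, a fold of 3.99. The difference of the responses, knockout minus control, was -0.64 ± 0.38. Knockout minus control was -0.38 ± 0.27 under imiquimod and 0.27 ± 0.27 under mock treatment.

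Aadacl2 had values of 8.48, 9.20, 9.06, 8.91 and 9.06 in imiquimod-treated knockout skin, against 7.55, 7.91, 8.22, 6.97 and 6.91 in mock-treated knockout skin. It had 8.93, 9.02, 9.30, 9.31 and 8.50 in imiquimod-treated control skin, against 6.86, 6.75, 7.77, 7.29 and 8.25 in mock-treated control skin. Treated arrays lay close together, and mock arrays spread over more than 1 log2 unit in each genotype. Imiquimod minus mock was 1.43 ± 0.27 in knockout skin (2.69-fold) and 1.63 ± 0.27 in control skin (3.09-fold). The genotypes differed little, by -0.07 ± 0.27 under imiquimod and 0.13 ± 0.27 under mock treatment, and the difference of responses was -0.2 ± 0.39. Leaving out single arrays moved the 2 genotype differences from -0.2 to 0.05 and from -0.05 to 0.34, so neither had a settled sign.

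Aadacl3 had values of 9.23, 9.80, 9.84, 9.06 and 9.66 in imiquimod-treated knockout skin, against 7.91, 7.81, 7.62, 7.28 and 7.08 in mock-treated knockout skin. It had 9.19, 9.19, 9.37, 9.30 and 8.66 in imiquimod-treated control skin, against 5.92, 6.36, 6.85, 6.36 and 6.14 in mock-treated control skin. All 4 groups were tight, with SDs of 0.28 to 0.35, and the control mock arrays stood lowest. Imiquimod minus mock was 1.98 ± 0.19 in knockout skin (3.94-fold) and 2.82 ± 0.19 in control skin (7.04-fold). Knockout minus control was 1.21 ± 0.19 in mock-treated skin, a fold of 2.32, and stayed between 1.11 and 1.34 when any single array was left out. Aadacl3 was the 1 of 3 whose mock arrays did not overlap between genotypes, where 0.189% of all genes did so with the knockout higher. Under imiquimod the difference was 0.38 ± 0.19 (1.3-fold) with overlapping arrays, as for 3 of 3, where 1.3% of all genes did not overlap with the knockout higher and 1.17% with it lower. The response in knockout minus that in control skin was -0.84 ± 0.28.

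The 4 groups fell in the same order for Aadac and Aadacl2. Imiquimod-treated control skin was highest and imiquimod-treated knockout skin next, at a distance of 0.38 for Aadac (pooled SD 0.49) and 0.07 for Aadacl2 (pooled SD 0.31), with overlapping arrays. Mock-treated knockout skin followed after a gap without overlap, 1.35 for Aadac and 1.43 for Aadacl2. Mock-treated control skin was last and overlapped it, at 0.27 below for Aadac (pooled SD 0.45) and 0.13 below for Aadacl2 (pooled SD 0.6). For Aadacl3 the imiquimod groups stood the other way round, knockout 0.38 above control with overlapping arrays (pooled SD 0.32). Mock-treated knockout skin lay 1.6 lower and mock-treated control skin a further 1.21 lower, neither overlapping its neighbour.

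The arrays that stood apart in hair genes also stood at the edge of their groups for Aadacl2. Of the 2 mock arrays with few hair transcripts, knockout replicate 3 had 8.22 and control replicate 5 had 8.25, each the highest Aadacl2 value of its group. Of the 2 imiquimod arrays with many, knockout replicate 1 had 8.48 and control replicate 5 had 8.50, each the lowest of its group. Aadac behaved alike in 3 of these 4 arrays (7.0, 7.70 and 6.83), while knockout mock replicate 3, at 6.14, lay within its group. For Aadacl3 only control imiquimod replicate 5 stood at the edge of its group, at 8.66. With the hair gene mean as a covariate, imiquimod minus mock for Aadacl2 was 0.95 in knockout and 0.96 in control skin, each more than 1.5 times below the value without it. For Aadac in control skin it was 1.51. The 27 hair genes themselves had a median difference of -2.03 in knockout and -2.94 in control skin, and the part of hair content in the levels of the 3 genes was not tested beyond these values.

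**Figure D2:**
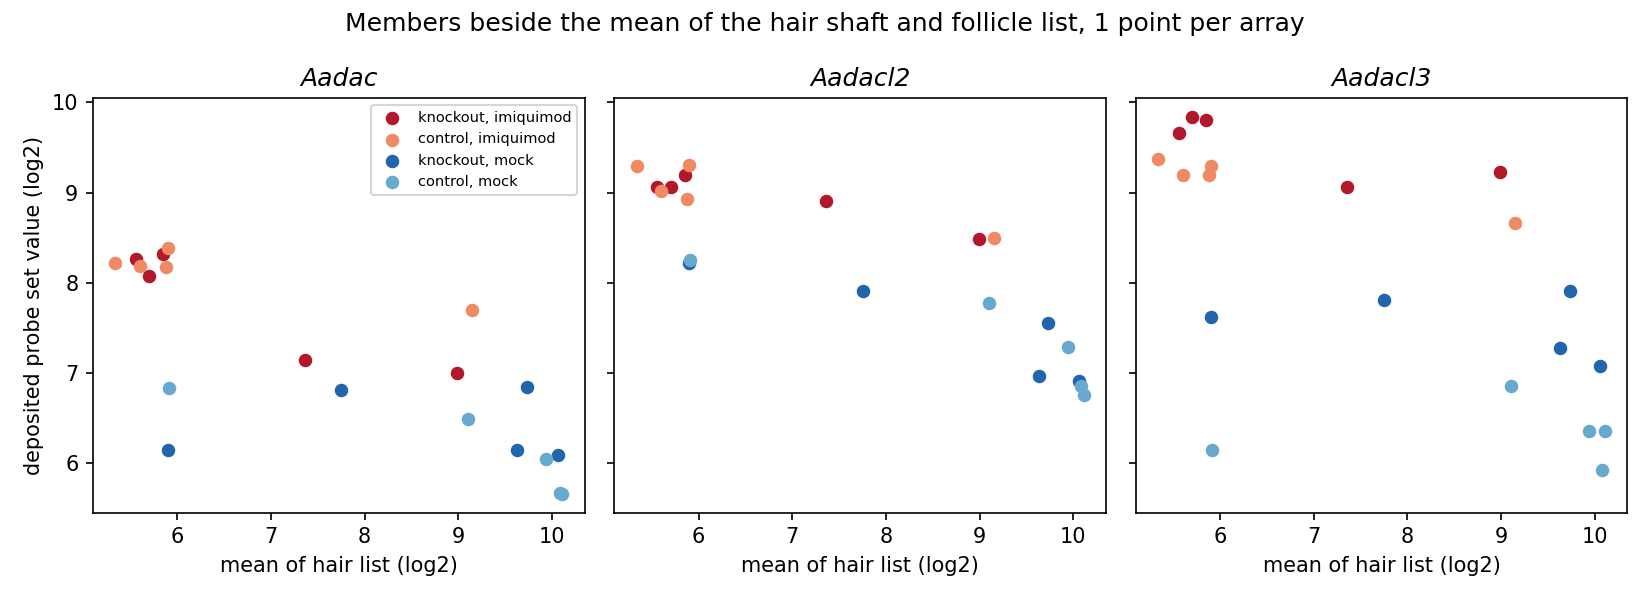
Log2 value of Aadac, Aadacl2 and Aadacl3 (vertical axis) against the mean log2 value of 27 hair shaft and follicle genes (horizontal axis) in each of the 20 arrays, coloured by group. The 2 mock arrays with hair means near 5.9 carry the highest Aadacl2 values of their groups, 8.22 and 8.25.

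Levels of the 3 genes went up and down together across arrays, partly because all of them differ between the same treatment groups. Pearson r over the 20 arrays was 0.93 for Aadac with Aadacl2 (Spearman rho 0.96), 0.89 for Aadac with Aadacl3 (0.88) and 0.87 for Aadacl2 with Aadacl3 (0.87). After each group mean was removed, r was 0.71, 0.71 and 0.57 for the same pairs (rho 0.71, 0.73 and 0.65). These are descriptions over arrays that share treatment and hair content, and they carry no p.

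The genes whose profile was most like each were named by the highest Pearson r with the group means removed, over the 20 arrays. For Aadac they were Creg1 (0.905), Skint11 (0.898), Ggh (0.885), Acer1 (0.873) and Srpk1 (0.87). For Aadacl2 they were Sdcbp2 (0.944), Il17rc (0.943), Tlcd3a (0.941), Il1f9 (0.936) and Sptlc3 (0.934). For Aadacl3 the highest was Aadacl4fm5 (0.925), at the other end of its own gene cluster, followed by Pnpla5 (0.922), Sgpp2 (0.907), Awat1 (0.901) and Rassf3 (0.892). With group means kept, the leading genes were Sdr16c6 (0.967) and Cyp3a13 (0.963) for Aadac, Alox12b (0.981) and Il17rc (0.981) for Aadacl2, and Gsdmc (0.979) and Serpinb3a (0.978) for Aadacl3.

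Beyond the 3 genes, 13 other members of the hormone-sensitive lipase family and its kin were measured, and they were tested with limma over all 22180 genes. In control skin 6 of 13 rose under imiquimod and 0 fell, where 6.47% of all genes rose and 4.37% fell, and the median difference of the 13 was 0.32 against -0.004 for all genes. In knockout skin 4 rose and 1 fell, where 11.1% of all genes rose and 9.71% fell, with a median of 0.12 against -0.002. The genes that rose in both were Aadacl4fm2, Aadacl4fm5, Aadacl4 and AAdacl4fm3, all on the chromosome 4 cluster of Aadacl3. Aadacl2fm2 and Aadacl4fm4 passed the test only in control skin, and Lipe, which encodes hormone-sensitive lipase, fell in knockout skin. The difference between the responses passed the test for 0 of 13. Of all genes 0.018% passed with the knockout response higher and 0.0% with it lower. The estimates of 12 of 13 relatives lay below 0, with a median of -0.32 against 0.004 for all genes. Their signs are not independent, since these genes share arrays and hair content. At an unadjusted p below 0.05 were 5 of 13, beside 1497 of all 22180 genes (limma).

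**Figure D3:**
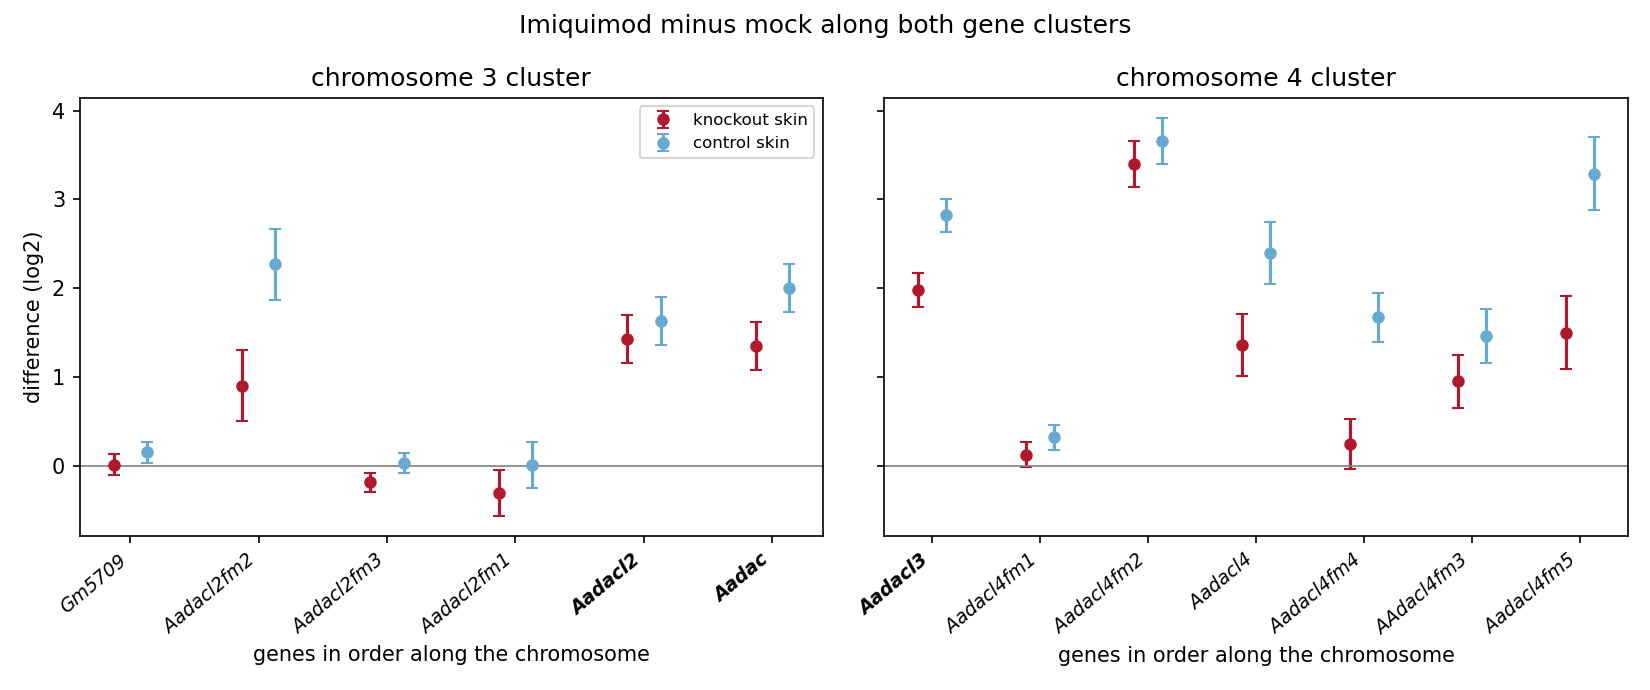
Imiquimod minus mock (log2, points with SE from limma over 20 arrays) for the family genes in order along the chromosome 3 and chromosome 4 clusters, in knockout and control skin. Aadacl4fm2 has the largest differences of the plotted genes, 3.4 in knockout and 3.66 in control skin, and Aadacl2fm1 lies near 0 beside Aadacl2.

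Aadacl4fm2 had 6.54, 7.59, 7.94, 7.33 and 6.86 in imiquimod-treated knockout skin, against 4.35, 3.41, 3.74, 3.91 and 3.84 in mock-treated knockout skin. In control skin it had 7.46, 7.94, 8.25, 7.90 and 6.81 under imiquimod, against 3.81, 4.36, 4.22, 3.70 and 3.95 under mock treatment. The arrays of both treatments lay far apart in each genotype. Its difference was 3.4 ± 0.26 in knockout skin (10.6-fold, limma adjusted p = 1.42e-08) and 3.66 ± 0.26 in control skin (12.7-fold, adjusted p = 8.12e-09). The mock values lay below the median gene, and detection calls were not used here, so this fold is uncertain. Aadacl4fm5 was 1.5 ± 0.41 higher in knockout skin (limma adjusted p = 0.0122) and 3.29 ± 0.41 higher in control skin (adjusted p = 1.32e-05). Aadacl4 was 1.36 ± 0.35 higher in knockout skin (limma adjusted p = 0.00809) and 2.4 ± 0.35 higher in control skin (adjusted p = 8.95e-05). For both of them the arrays overlapped between treatments in knockout skin and did not in control skin.

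AAdacl4fm3 rose by 0.95 ± 0.3 in knockout skin (limma adjusted p = 0.0274) and by 1.46 ± 0.3 in control skin (adjusted p = 0.00252). Its call in knockout skin was lost without knockout mock replicate 4 (adjusted p = 0.074) or 5 (0.0643) and without knockout imiquimod replicate 2 (0.0818), 3 (0.0826) or 5 (0.0729). It was also lost with only the 2 groups in the fit (0.0895) and with the hair covariate (0.0992). Aadacl4fm4 was 0.24 ± 0.28 higher in knockout skin (limma adjusted p = 0.639) and 1.67 ± 0.28 higher in control skin (adjusted p = 0.000433). Aadacl2fm2 was 0.9 ± 0.4 higher in knockout skin (limma adjusted p = 0.127) and 2.27 ± 0.4 higher in control skin (adjusted p = 0.000635). Without knockout imiquimod replicate 4 both passed in knockout skin as well (adjusted p = 0.0383 for Aadacl4fm4 and 0.0182 for Aadacl2fm2, limma). Mock means of Aadacl4fm4 and Aadacl2fm2 lay below the median gene (5.44). They were 4.72 and 3.64 in knockout and 4.21 and 3.58 in control skin, so the size of both rises is uncertain. Lipe differed by -0.47 ± 0.14 in knockout skin (limma adjusted p = 0.0172). It did not pass there without knockout mock replicate 4 (0.0501), with only the 2 groups in the fit (0.062) or without the array of each group farthest in hair genes (0.0816).

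Aadacl2fm1, whose promoter is closest to that of Aadacl2, differed by -0.31 ± 0.26 in knockout skin (limma adjusted p = 0.485) and by 0.01 ± 0.26 in control skin (adjusted p = 0.988). Its arrays ran from 5.74 to 6.81 in imiquimod-treated and from 6.43 to 7.20 in mock-treated knockout skin. They ran from 6.07 to 7.15 in imiquimod-treated and from 6.02 to 7.53 in mock-treated control skin, so the treatments overlapped in both genotypes. With the hair covariate it was lower in knockout skin, by -0.71 (limma adjusted p = 0.00599). Gm5709, Aadacl2fm3 and Aadacl4fm1 of the clusters, and Nceh1 and Afmid, an esterase and a formamidase placed elsewhere in the genome, did not pass the test in either genotype. Of these, Aadacl4fm1 passed in control skin without the array of each group farthest in hair genes (adjusted p = 0.0494, limma). Gm9696, the pseudogene beside Aadacl2, rose by 2.26 ± 0.32 in knockout skin (limma adjusted p = 3.88e-05) and by 2.34 ± 0.32 in control skin (adjusted p = 4.02e-05). Its mock means, 2.73 in knockout and 2.89 in control skin, lay below the median gene (5.44), so the size of its rise is uncertain.

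Between the genotypes, 0 of the 13 related genes passed the limma test under imiquimod, where 0.374% of all genes were higher and 0.171% lower in knockout skin. An unadjusted p below 0.05 was reached by 6 of 13, beside 2218 of all 22180 genes (limma). The estimates of 12 of 13 lay below 0, with a median of -0.3 against 0.006 for all genes. Among them Aadacl2fm3, Gm5709 and Aadacl4fm1 were dim in every group, with means from 2.17 for Aadacl2fm3 to 4.22 for Aadacl4fm1. All 13 genes share arrays and hair content, so their signs are not independent. On chromosome 4 all 6 relatives of Aadacl3 had estimates below 0, from -1.0 for Aadacl4 to -0.28 for Aadacl4fm1, while Aadacl3 itself was at 0.38. In mock-treated skin 0 of 13 passed, where 0.00902% of all genes were higher in knockout skin, and the median was 0.04. Below an unadjusted p of 0.05 were 0 of 13, beside 708 of all 22180 genes (limma). Aadacl4fm5 had the estimate nearest to the 1.21 of Aadacl3, at 0.83 ± 0.41 (limma adjusted p = 0.999).

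**Figure D4:**
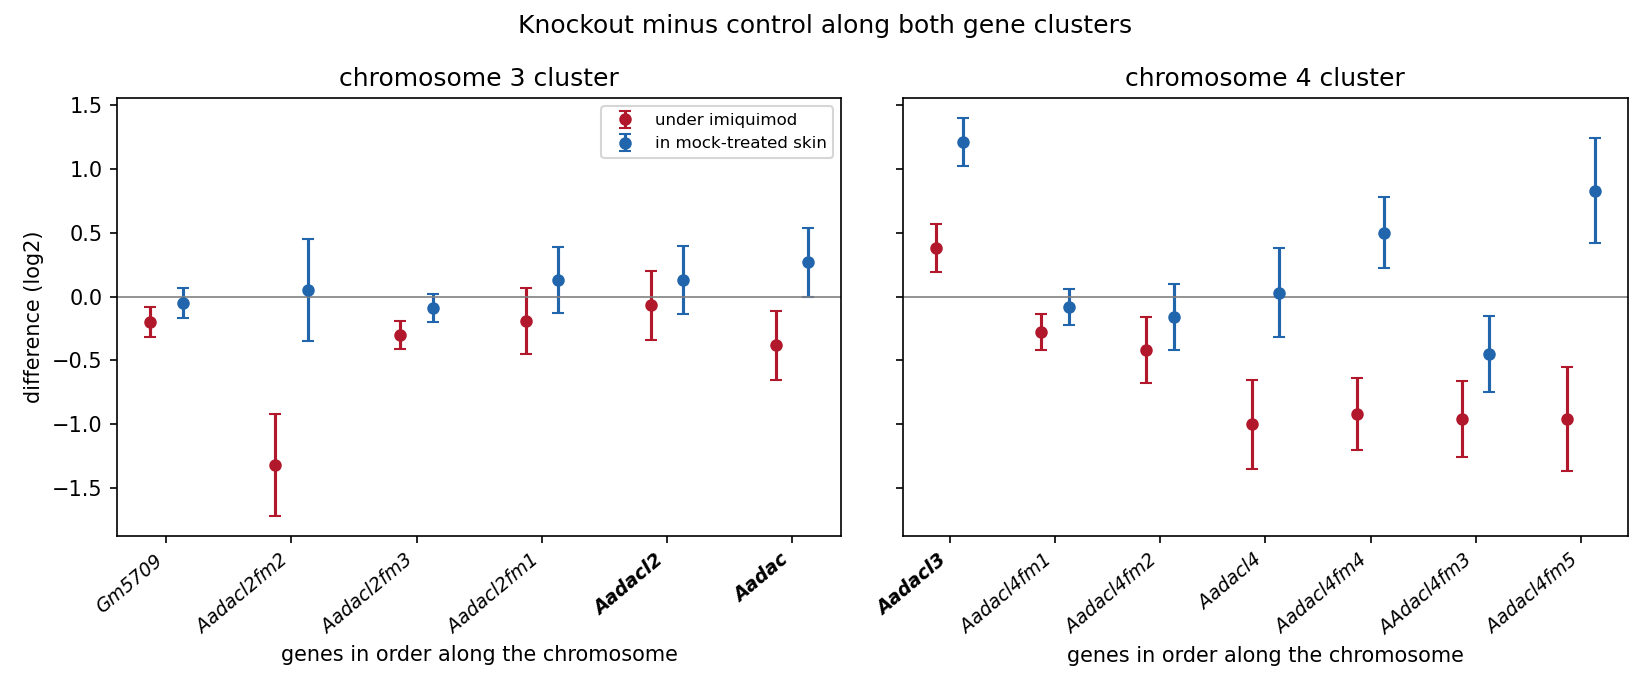
Knockout minus control (log2, points with SE from limma over 20 arrays) for the family genes in order along both clusters, under imiquimod and in mock-treated skin. Aadacl3 stands at 1.21 in mock-treated skin, and the 6 other chromosome 4 genes lie at or below -0.28 under imiquimod.

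Other groups of enzymes with related chemistry were set beside the family, with the limma test over all genes, of which 11.1% rose and 9.71% fell in knockout skin and 6.47% rose and 4.37% fell in control skin. Of 21 carboxylesterases, the other large family of endoplasmic reticulum ester hydrolases, 4 rose and 0 fell in knockout skin and 4 rose and 1 fell in control skin, with medians of 0.0 and 0.07. In each genotype 3 of them rose at least 2-fold. Ces4a was 1.98 ± 0.21 higher in knockout and 2.55 ± 0.21 higher in control skin, Ces2g 1.83 ± 0.28 and 1.91 ± 0.28, and Ces2f 1.67 ± 0.25 and 1.68 ± 0.25. The smaller changes were those of Ces2h in knockout skin (0.32) and of Ces1c (0.54) and Ces1b (-0.33) in control skin. They lost the call without any 1 of 9, 1 and 6 of the 20 arrays, with adjusted p up to 0.114, 0.0608 and 0.118, and all lost it with the hair covariate (adjusted p = 0.107, 0.0993 and 0.211, limma). Under imiquimod 0 of 21 differed between genotypes (5 at an unadjusted p below 0.05, beside 2218 of all 22180 genes, limma).

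Of 29 lipases and acyltransferases of neutral lipid, 12 rose and 3 fell in knockout skin and 14 rose and 0 fell in control skin, with medians of 0.24 and 0.53. Awat1, a wax synthase of sebaceous glands, rose by 2.0 ± 0.29 in knockout and by 2.62 ± 0.29 in control skin, and its relative Dgat2l6 by 1.74 ± 0.26 and 2.33 ± 0.26. Pnpla5, a triacylglycerol lipase whose profile was among the closest to that of Aadacl3, rose by 1.23 ± 0.28 in knockout and by 2.18 ± 0.28 in control skin. The 3 of 29 that fell in knockout skin are a share near the 9.71% of all genes. They were Plin1 (-1.0), a coat protein of fat droplets in adipocytes, Lpl (-0.9), the lipoprotein lipase, and Plin4 (-0.56). The call on Plin4 was lost without any 1 of 7 arrays (adjusted p up to 0.109), with only the 2 groups in the fit (0.0871) and without the array of each group farthest in hair genes (0.161). That on Lpl was lost without those farthest arrays (-0.61, limma adjusted p = 0.0641) and with the mean of the probe sets of a gene (-0.7, adjusted p = 0.106). In control skin Plin1 (-1.17, limma adjusted p = 0.00133) and Lpl (-0.82, adjusted p = 0.0167) fell with the hair covariate, and Plin1 also with only the 2 groups in the fit (-0.62, adjusted p = 0.047). Plin1 and Lpl, and Lipe among the relatives above, are also adipocyte markers and are counted in the adipocyte list. The counts and medians of that list are therefore not independent of their falls. Of its 14 genes, 7 fell and 0 rose in knockout skin and 1 fell and 0 rose in control skin, with medians of -0.83 and -0.05. Its array mean ran from 6.8 to 7.82 in imiquimod-treated knockout, 7.43 to 8.15 in imiquimod-treated control, 7.47 to 9.18 in mock-treated knockout and 7.33 to 8.31 in mock-treated control skin. The part of adipocytes in the falls of Plin1, Lpl, Plin4 and Lipe was not tested. Under imiquimod 0 of 29 differed between genotypes (10 at an unadjusted p below 0.05, beside 2218 of all 22180 genes, limma).

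A list of 25 endoplasmic reticulum enzymes was named for xenobiotic metabolism, and the name does not mean that each acts chiefly on foreign compounds. Of these 25, 5 rose and 2 fell in knockout skin and 5 rose and 0 fell in control skin, with medians of -0.11 and 0.21. The 2 of 25 that fell in knockout skin are a share near the 9.71% of all genes. Cyp3a13, a cytochrome P450 whose profile was among the closest to that of Aadac with the group means kept, rose by 1.52 ± 0.29 in knockout and by 2.13 ± 0.29 in control skin. Cyp1a1, the classic target of the aryl hydrocarbon receptor, rose by 0.74 ± 0.19 and 1.44 ± 0.19, and Cyp4f39 by 0.97 ± 0.12 and 1.15 ± 0.12. Cyp2b10 (0.63 and 0.94) and Cyp26b1 (0.44 and 0.67) completed the 5, and in knockout skin their calls were lost without any 1 of 12 and 14 arrays (adjusted p up to 0.131 and 0.117). With the hair covariate neither passed in knockout (0.29 and 0.2, limma adjusted p = 0.217 and 0.237) or control skin (0.47 and 0.34, adjusted p = 0.0979 and 0.0953). Ephx1, the microsomal epoxide hydrolase, and Fmo5, a flavin monooxygenase, fell in knockout skin, with differences of -1.06 ± 0.11 and -0.7. In control skin Ephx1 differed by -0.31 ± 0.11 (limma adjusted p = 0.069), and it passed there with the hair covariate (-0.46, adjusted p = 0.0132) and with the replicate number as a block (-0.31, adjusted p = 0.0466). Under imiquimod Ephx1 was the 1 of 25 that differed between genotypes, at -0.55 in knockout minus control (limma adjusted p = 0.02), and this call was lost without control imiquimod replicate 2 or 5 or knockout imiquimod replicate 1, 2 or 4. It was also lost with only the 2 groups in the fit (adjusted p = 0.059) and without the array of each group farthest in hair genes (-0.47, adjusted p = 0.0981), and with the hair covariate Cyp1a1 passed the same comparison (-0.62, adjusted p = 0.0443, limma).

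Markers of the cell types that could carry these genes also moved with treatment. Of 28 genes of epidermal terminal differentiation, 19 rose and 2 fell in knockout skin and 20 rose and 1 fell in control skin, with a median of 0.86 in each. Rptn, a late cornified layer protein, rose by 3.93 ± 0.31 in knockout and by 4.41 ± 0.31 in control skin, and Krt77, a suprabasal keratin, fell by 3.59 and by 1.3. The call on Krt77 in control skin was lost without control imiquimod replicate 3 (limma adjusted p = 0.0503). Of 16 sebaceous gland genes, 6 rose and 2 fell in knockout skin and 8 rose and 1 fell in control skin. The array mean of the sebaceous list ran from 7.57 to 8.41 in imiquimod-treated knockout, 8.3 to 8.69 in imiquimod-treated control, 7.42 to 7.87 in mock-treated knockout and 7.15 to 7.92 in mock-treated control skin. Of 13 neutrophil genes, 7 rose in knockout and 3 in control skin. Under imiquimod some genes of the differentiation and neutrophil lists also differed between genotypes. Of all genes 0.374% were higher and 0.171% lower in knockout skin. Of the 16 sebaceous gland genes 0 passed the test, while the estimates of 15 lay below 0, with a median of -0.46 against 0.006 for all genes. Of the 28 differentiation genes 2 were lower in knockout skin, Krt77 (-2.32 ± 0.33, limma adjusted p = 0.00186) and Flg2 (-2.0 ± 0.3, adjusted p = 0.00245), a relative of filaggrin, and 0 were higher. The call on Krt77 was lost with only the 2 groups in the fit (adjusted p = 0.0511). Of the 13 neutrophil genes 3 were higher in knockout skin and 0 lower. They were Clec4e (2.54 ± 0.44, limma adjusted p = 0.0117), a lectin receptor, and the calgranulins S100a8 (2.04 ± 0.45, adjusted p = 0.0452) and S100a9 (1.93 ± 0.4, adjusted p = 0.0275), which inflamed keratinocytes also express. All 3 lost the call with only the 2 groups in the fit (adjusted p = 0.0911, 0.119 and 0.114) and without the array of each group farthest in hair genes (0.0746, 0.116 and 0.0532). Those on S100a8 and S100a9 were also lost with the replicate number as a block (0.0958 and 0.07) and without any 1 of 15 and 4 arrays (up to 0.128 and 0.096). The part of these cell types in the levels of Aadac, Aadacl2 and Aadacl3 was not tested. The mean of 15 liver and intestine genes, the tissues in which Aadac is best known, stayed between 4.18 and 4.45 over all arrays, below the median gene, although single genes of it were higher (Alb 4.77 to 7.33).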

How the data were processed

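The table that the authors deposited holds 41345 probe sets on 20 arrays. These deposited values were taken as log2 from their range, since the sources used here name no scale, summarisation, normalization or software. Of the probe sets, 23521 had 1 gene symbol in the platform table, and the 17824 others were left out. The brightest probe set stood for a gene, which left 22180 genes. Differences were fitted in R 4.3.3 with limma 3.58.1 (lmFit, eBayes), 1 mean per group, all 20 arrays in 1 fit (16 residual and 3.99 prior degrees of freedom). All tests were two-sided, and p-values were adjusted over all genes by Benjamini-Hochberg, with a threshold of 0.05. The fit was checked on simulated data with independent noise and the same spread in all groups. That check does not cover arrays that differ in hair content or groups of unequal spread. The number of arrays limits the precision. An animal is taken to be 1 array.

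The 3 genes and all gene lists were chosen with earlier results of these data known. Of the lists, 2 symbols that resolve to unrelated genes as synonyms were left out. The genes named were all family genes, for each list and comparison the 2 largest rises and 2 largest falls past the threshold, the 5 most similar genes of each of the 3 (provisional symbols left out), their nearest neighbours and Zfp36; a part is given. Ces2f, Ces2h, Ces1c, Cyp2b10, Cyp26b1 and S100a9 were added after their values were seen, to account for small counts. Promoters are from RefSeq GRCm38.p6; its gene order was used for names and neighbours only. Alternatives were the groups in the fit, a replicate block, an intensity trend, quantile normalization, the mean of probe sets, leaving out the 30% dimmest genes, hair content as a covariate or without the arrays farthest in it, and leaving out each array.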

Additional observations from a re-analysis of the deposited data

Results flagged for a closer look

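Dixon's ratio sets a value apart in about 1 in 20 groups of independent values by chance. The genes named here share arrays, and some were named after their values were seen, so that rate cannot serve as a test of them. In 180 groups of 5 arrays over 45 named genes, 9 values stood apart from the other 4 by this ratio, 5.0% of the groups. Of these, 5 were control imiquimod replicate 5, each the lowest of its group: Aadacl3 at 8.66 (others 9.19 to 9.37), Aadacl4 at 8.07 (8.87 to 9.06), Ces4a at 7.05 (8.04 to 8.14), Cyp3a13 at 6.8 (7.35 to 7.44) and Cyp26b1 at 6.85 (7.28 to 7.43). This array had a hair gene mean of 9.15, against 5.34 to 5.9 in the others of its group. Cyp26b1 was also low in knockout imiquimod replicate 1, at 6.92 (7.23 to 7.35), the array with the hair mean of 8.99. Ces2h was low in control mock replicate 3, at 3.71 (4.07 to 4.2). S100a8 and S100a9 were high in knockout mock replicate 5, at 6.3 (4.52 to 4.96) and 6.12 (4.84 to 5.12). The part of hair content in the values of those 2 imiquimod arrays was not tested.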

How the results depend on the processing

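Outside the omission of single arrays, 114 differences of the 3 genes recomputed under the alternatives moved by less than the spread between replicates, and 3 moved by more. Many of the 114 could not move, since each group had 5 arrays and each of the 3 genes 1 probe set. The groups in the fit, the replicate block, the intensity trend, the mean of probe sets and the dimmest genes therefore leave these differences unchanged. Only quantile normalization, the hair covariate and leaving out the arrays farthest in hair genes could move them. The 3 that moved by more came with hair content as a covariate. It gave 1.51 for Aadac in control skin and, for Aadacl2, 0.95 in knockout and 0.96 in control skin (imiquimod minus mock). No difference of a named gene past the threshold changed sign under any alternative run. Genes called between genotypes under imiquimod, 121 in all, numbered 17 with only the 2 groups in the fit, 78 with a replicate block, 336 with the hair covariate, 54 without the array of each group farthest in hair genes, and 45 to 174 leaving out 1 array. In mock-treated skin 2 were called, against 0 with only the 2 groups (limma, 555 at an unadjusted p below 0.05), 5 with the hair covariate, 1 without the farthest arrays and 0 to 4 leaving out 1 array. For the difference of responses 4 were called, against 13 with the hair covariate and 4 to 8 leaving out 1 array. The labels do not say whether the replicate numbers pair animals. Of 30 pairs of the same number, 14 correlated above 0.1 (-0.709 to 0.516) and 4 arrays correlated best with their own number. These correlations cannot settle the pairing, since they also carry the differences in hair content between arrays. Relatives that rose numbered 3 to 6 in knockout and 6 to 6 in control skin leaving out 1 array. Detection calls were not used, so the folds of dim genes such as Aadacl4fm2 are uncertain.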
